A study of Rattus norvegicus with 2 samples.

Results

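The 10 genes of the cone phototransduction cascade, *Opn1sw*, *Opn1mw*, *Arr3*, *Gnat2*, *Gnb3*, *Gngt2*, *Pde6c*, *Pde6h*, *Cnga3* and *Cngb3*, were chosen by name and are 10 of the 32662 genes in the expression table of this study of rat retina. Each symbol was found on a single row, and all 10 passed the filter of FPKM of at least 1 in at least 1 library. The study sequenced 2 retinal samples of Long-Evans rats aged 2 months, all female according to its methods. The CTRL library came from a retina after a sham procedure, and the IR12 library from a retina collected 12 hours after reperfusion that followed ischemia. Each condition has 1 library, so no value below has a replicate error, no p-value was computed, and the injury cannot be told apart from any other difference between the 2 retinas. Whether both retinas came from the same rat is not given in the sources used here.

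Cones are the photoreceptors of daylight and colour vision, and they are far outnumbered by rods in the rat retina. In a cone, light activates an opsin, the opsin activates the G protein transducin, and transducin lifts the inhibitory subunit from a cyclic GMP phosphodiesterase. The fall in cyclic GMP closes a cation channel in the outer segment, and cone arrestin ends the signal by binding the activated opsin. Rods use the same steps with their own copies of most of these proteins, so a cone gene can be set against a rod counterpart in the same library.

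Expression was deposited as FPKM, fragments scaled to transcript length and sequencing depth, so levels can be compared between genes per length. A log2 ratio below is that of (FPKM + 1) in IR12 over (FPKM + 1) in CTRL; the added 1 draws the ratio of weakly expressed genes towards 0. Read counts per gene are not part of the table. The study gives total reads for each library, more for IR12 than for CTRL, and these totals were not set against the values below. Among 186 genes with a listed locus of 939 bases, the lowest repeated FPKM was 0.0881 in CTRL, shared by 5 genes, and 0.0516 in IR12, shared by 16, a ratio of 1.71 between the libraries. If this value is the worth of 1 read, which was not tested, the FPKM of *Cnga3*, the lowest of the 10, would equal 21.1 reads in CTRL and 32.9 in IR12 in a gene of that length. That of *Gnat2* would equal 2030.5 and 2679 reads. The transcript lengths of the cone genes were not used, so these are nominal counts for comparing genes and not the reads of each gene.

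The tissue label was checked against markers. All 9 rod phototransduction genes of the list used here were detected, with a summed FPKM of 26041 in CTRL against 24358 in IR12, led by *Gngt1*. The libraries also differed in markers of other tissue, and tissue carried along with the retina cannot be told apart from expression in the retina itself. All 5 lens markers were at least 2-fold lower in IR12 on each of the 5 scales described below, beside 6.12% of all genes as deposited, with a summed FPKM of 1752 in CTRL against 203 in IR12, and *Cryaa*, a lens crystallin, was the most abundant with 1118 and 124. The lens list made up 0.390% of the FPKM of all genes other than small RNAs in CTRL and 0.0422% in IR12. All 6 leukocyte markers were higher in IR12 on each of the 5 scales, beside 48.2% of all genes lower as deposited and 15.7% on the common-sum scale. At least 2-fold higher were 5 as deposited, beside 6.56% of all genes, and 6 on the common-sum scale, beside 22.4%. Their summed FPKM was 11.5 in CTRL against 123 in IR12, led by *Lyz2*, and *S100a8* was listed at 0 in CTRL. The part of these markers in the values of the cone genes was not tested.

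Of the 10 cone genes, 9 had a lower FPKM in IR12 and *Gnb3* a higher one, whereas 48.2% of the 13599 genes that passed the filter were lower. The median log2 ratio of the 10 genes was -0.51, beside 0.02 over all genes that passed. On a scale that sets the FPKM of both libraries to the same sum, which raises every value of IR12 by 0.65 on the log2 scale, 5 of the 10 were lower, beside 15.7% of all genes that passed, and *Opn1mw*, *Gnat2*, *Pde6c* and *Cnga3* joined *Gnb3* on the higher side. The median of the 10 was 0.14 there, beside 0.61 over all genes, so the median of the cone genes was below that of all genes on either scale, while *Gnb3* was above it on both. That sum is largely small RNAs, which take 68.0% of it in CTRL and 46.3% in IR12. With small RNAs left out of the sum, IR12 values moved by -0.10 and 9 cone genes were lower, beside 55.3% of all genes. In a whole retina, fewer cones and less RNA per cone cannot be told apart.

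By the ratio of FPKM + 1, at least 2-fold lower in IR12 was 1 cone gene, *Opn1sw*, beside 6.12% of all genes that passed. At least 2-fold higher was 1, *Gnb3*, beside 6.56%. Single genes among 10 are close to these shares, and the counts depend on the setting. *Opn1sw* with a log2 ratio of -1.07 and *Gnb3* with 1.02 lay just inside the 2-fold limit, and *Arr3* with -0.99 and *Cngb3* with -0.97 just outside it. With a pseudocount of 0.1 in place of 1, *Arr3* and *Cngb3* were inside as well, at -1.003 and -1.08, which makes 3 of 10 beside 8.65% of all genes. After centring on the median gene 2 were at least 2-fold lower, *Opn1sw* and *Arr3*, beside 6.37%, and with small RNAs left out of the sum 3, with *Cngb3*, beside 6.90%. On the common-sum scale no cone gene was at least 2-fold lower, beside 3.48% of all genes, and *Gnb3* was the 1 at least 2-fold higher, beside 22.4%. *Gnb3* was outside the limit after centring on the median gene, at 0.9985, and with small RNAs left out of the sum, at 0.93.

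**Figure D1:**
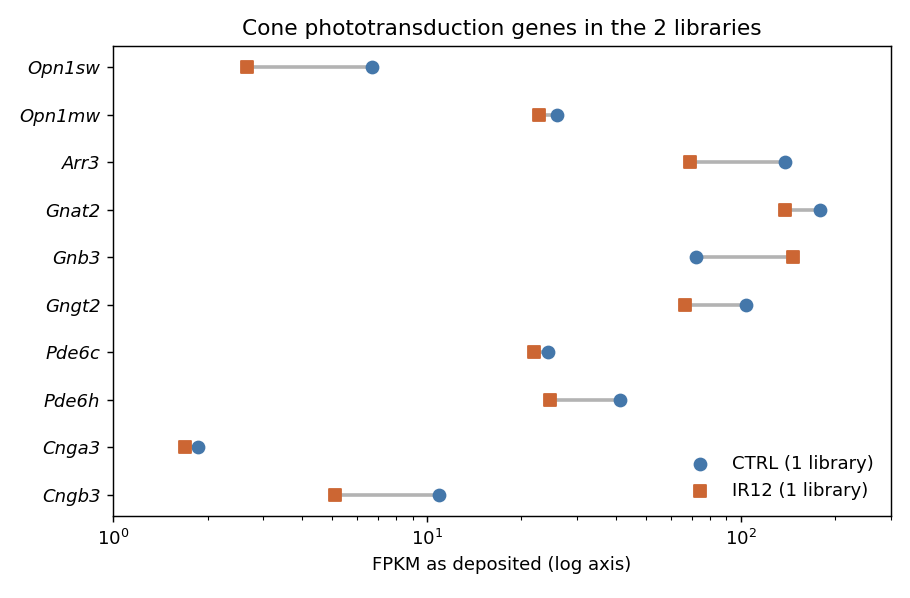
FPKM as deposited (log axis) of the 10 cone phototransduction genes, with a circle for the CTRL library and a square for the IR12 library, 1 library each. The square lies to the left of the circle for 9 genes and to the right for Gnb3, and on the common-sum scale 5 of the 10 genes would be lower in IR12, beside 15.7% of all genes.

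The 2 cone opsins differed in how far apart the libraries were. *Opn1sw*, the short-wavelength opsin (rn6, chr4:56653844-56656980), was at 6.68 FPKM in CTRL and 2.66 FPKM in IR12, so that CTRL was 2.51 times IR12. *Opn1mw*, the middle-wavelength opsin (chrX:156569683-156589907), had 26.0 and 22.8, a log2 ratio of -0.18 that became 0.45 on the common-sum scale. *Opn1sw* was lower in IR12 on each of the 5 scales that were tried, with log2 ratios between -1.30 and -0.57. Of all genes that passed the filter, 5.38% had a lower log2 ratio than *Opn1sw* and 34.2% a lower one than *Opn1mw*. Within a library, where scaling between libraries has no effect, the FPKM of *Opn1mw* was 3.88 times that of *Opn1sw* in CTRL and 8.57 times in IR12. Under the same assumption on the worth of 1 read, the FPKM of *Opn1sw* would equal 75.8 reads in CTRL and 51.6 in IR12 for a gene of 939 bases.

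The sequences before the annotated starts of the 2 opsin genes are shown because the opsins open the cascade, and both are in the promoter table. They are the 250 bases before the start on the gene's strand, 5′ to 3′, from RefSeq on GRCr8, a later build than that of the expression table. *Opn1sw* lies on the minus strand (chr4:58945826-58946075) and *Opn1mw* on the plus strand (chrX:157056105-157056354). Capitals mark matches, on either strand, to TAATCC, the core letters bound by the photoreceptor factor CRX, or to TATAAA, the letters of the TATA box.
Opn1sw: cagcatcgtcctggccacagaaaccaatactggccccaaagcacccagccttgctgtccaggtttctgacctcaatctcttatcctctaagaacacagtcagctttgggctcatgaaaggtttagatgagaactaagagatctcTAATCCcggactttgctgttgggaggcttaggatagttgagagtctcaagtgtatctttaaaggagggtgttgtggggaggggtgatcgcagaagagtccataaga
Opn1mw: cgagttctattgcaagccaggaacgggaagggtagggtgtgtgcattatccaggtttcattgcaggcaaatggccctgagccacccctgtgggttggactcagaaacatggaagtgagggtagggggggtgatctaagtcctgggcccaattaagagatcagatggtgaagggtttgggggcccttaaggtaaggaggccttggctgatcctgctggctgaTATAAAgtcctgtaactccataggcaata

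TAATCC begins 106 bases before the start of *Opn1sw*, and TATAAA begins 29 bases before that of *Opn1mw*. The promoter table holds 5 of the 10 cone genes, these 2 and *Arr3*, *Pde6h* and *Cnga3*. TAATCC was found in 1 of the 5, beside 6.34% of 33469 promoters, and in 3 of 7 rod genes with a promoter in the table, *Gngt1*, *Pde6a* and *Cngb1*. TATAAA was found in 2 of the 5, *Opn1mw* and *Pde6h*, beside 12.9% of all promoters, and in 2 of the 7 rod genes. These are matches of letters only and show no binding, and a missing match says only that the letters are not in this window.

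*Arr3*, cone arrestin (rn6, chrX:70438617-70457318), was at 138 FPKM in CTRL and 69.0 FPKM in IR12, the widest gap in FPKM among the 9 genes that were lower. Its log2 ratio was -0.99, and -0.35 on the common-sum scale. The listed locus of *Arr3* also holds the row Rn50_X_0714.1, with 26.8 in CTRL and 20.8 in IR12, so reads of the 2 rows may be divided between them. *Sag*, the rod arrestin, differed the other way, at 2482 FPKM in CTRL and 4703 FPKM in IR12. The FPKM of *Arr3* was 5.57% of that of *Sag* in CTRL and 1.47% in IR12.

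The 3 transducin subunits of cones did not share a direction. *Gnat2*, the alpha subunit that carries the signal from opsin to phosphodiesterase (chr2:210880777-210889881), was at 179 FPKM in CTRL and 138 FPKM in IR12, or a log2 ratio of -0.37 that became 0.27 on the common-sum scale. *Gngt2*, the gamma subunit (chr10:83655460-83658589), had 104 and 66.3, a log2 ratio of -0.64 that came to -0.0025 on the common-sum scale, close to no difference. *Gnb3*, the beta subunit (chr4:157352372-157358262), had 71.9 in CTRL and 147 in IR12, 2.05 times as high, and it was higher in IR12 on each of the 5 scales, with log2 ratios between 0.93 and 1.67. The FPKM of *Gnb3* was 0.402 times that of *Gnat2* in CTRL and 1.07 times in IR12.

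*Gnb3* is also used by ON bipolar cells, the second-order neurons that respond to a drop in glutamate release, so its value is not that of cones alone. Of the 9 bipolar cell markers, 8 were lower in IR12 by the deposited values, beside 48.2% of all genes, and 3 on the common-sum scale, beside 15.7%, with a summed FPKM of 801 in CTRL against 639 in IR12 as deposited and a median log2 ratio of -0.43 that became 0.19. *Gng13*, a gamma subunit of ON bipolar cells and the most abundant gene of that list over both libraries together, had 182 in CTRL and 177 in IR12, or a log2 ratio of -0.04. *Pcp2*, also a gene of ON bipolar cells, was the marker that was higher as deposited, with 47.4 and 55.0. *Grm6*, the glutamate receptor of these cells, had 28.4 and 20.8, and *Trpm1*, their cation channel, had 189 and 159. The log2 ratios of the 9 markers ran from -0.70 to 0.21 as deposited, and none differed by 2-fold on any of the 5 scales. Of all genes, 6.12% were at least 2-fold lower and 6.56% higher as deposited, and 3.48% and 22.4% on the common-sum scale. The part of bipolar cells in the difference of *Gnb3* was not tested.

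The phosphodiesterase subunits also differed from each other. *Pde6c*, the catalytic subunit that breaks down cyclic GMP (chr1:256822334-256877810), was at 24.2 FPKM in CTRL and 21.9 FPKM in IR12, or a log2 ratio of -0.14 that became 0.48 on the common-sum scale. *Pde6h*, the inhibitory subunit (chr4:170958196-170963046), had 41.4 and 24.6, so that CTRL was 1.68 times IR12, with a log2 ratio of -0.72 and of -0.10 on the common-sum scale. Within a library the FPKM of *Pde6h* was 1.71 times that of *Pde6c* in CTRL and 1.13 times in IR12. The inhibitory subunit was thus lower in IR12 relative to the catalytic one, whichever scale is used between libraries.

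The channel subunits were the least abundant of the 10 cone genes apart from *Opn1sw*. *Cnga3*, the alpha subunit that forms the pore (chr9:43807677-43854396), was at 1.86 FPKM in CTRL and 1.70 FPKM in IR12, or a log2 ratio of -0.08 that became 0.36 on the common-sum scale. As deposited it was the smallest difference of the 10 genes, and the reads behind it were not counted. *Cngb3*, the beta subunit (chr5:33097654-33507467), had 10.9 and 5.09, so that CTRL was 2.14 times IR12, and its log2 ratio stayed below 0 on each of the 5 scales, between -1.08 and -0.41. Its listed locus is shared with 3 other rows, of which *Maged2* was at 15.9 FPKM in CTRL and 13.2 FPKM in IR12 while 7SK and SNORA11 were listed at 0. The FPKM of *Cngb3* was 5.86 times that of *Cnga3* in CTRL and 2.99 times in IR12.

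The order of the 10 levels was nearly the same in both libraries. In CTRL it ran from *Gnat2*, *Arr3*, *Gngt2* and *Gnb3* through *Pde6h*, *Opn1mw*, *Pde6c* and *Cngb3* to *Opn1sw* and *Cnga3*. In IR12 *Gnb3* moved from place 4 to place 1, and the other 9 genes kept their order. With 1 library each, which neighbours in this order differ beyond their spread could not be examined.

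**Figure D2:**
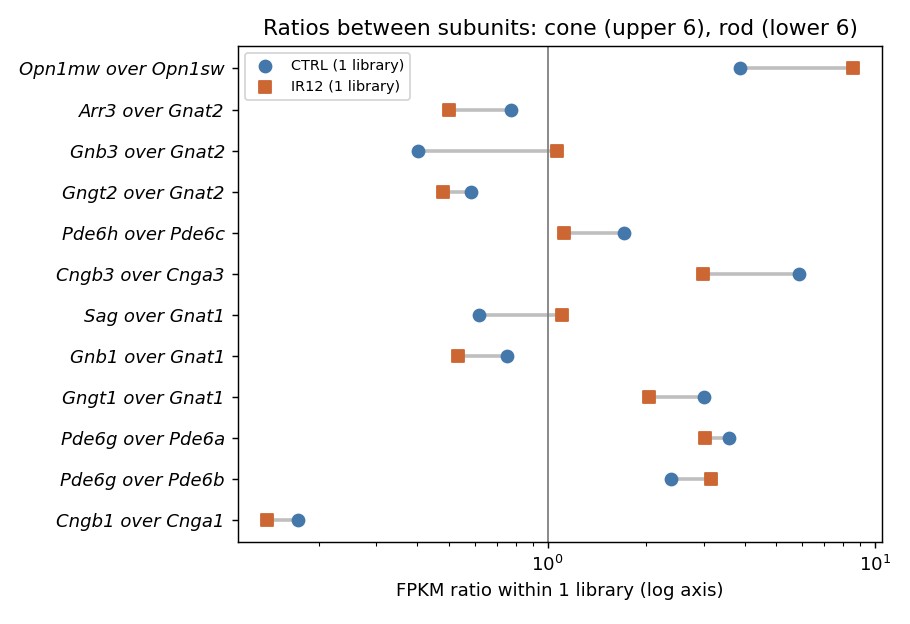
FPKM of 1 cascade gene over that of another within the same library (log axis), for 6 cone pairs and 6 rod pairs, with a circle for CTRL and a square for IR12. Scaling between libraries has no effect on these ratios, and Opn1mw over Opn1sw moved from 3.88 to 8.57, Gnb3 over Gnat2 from 0.402 to 1.07, and Cngb3 over Cnga3 from 5.86 to 2.99.

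Ratios between the rod genes were read in the same way. *Sag* over *Gnat1* was 0.616 in CTRL and 1.11 in IR12, while *Arr3* over *Gnat2* was 0.773 and 0.499. *Gnb1* over *Gnat1* was 0.753 and 0.533, and *Gnb3* over *Gnat2* moved the other way, as given above. For the gamma subunit, *Gngt1* over *Gnat1* was 3.004 and 2.04, and *Gngt2* over *Gnat2* was 0.582 and 0.480. *Pde6g* over *Pde6a* was 3.57 and 3.02, while over *Pde6b* it was 2.39 and 3.17, and *Cngb1* over *Cnga1* was 0.173 and 0.139. The cone and the rod ratio thus moved in opposite directions for arrestin and for the beta subunit of transducin, and for the phosphodiesterase when *Pde6b* is the rod partner but not when *Pde6a* is.

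Cone genes were then set against rod counterparts. Of the 9 rod genes, 5 were higher and 4 lower in IR12 as deposited, beside 48.2% of all genes lower. Their median log2 ratio was 0.0027. It became -0.0225 after centring on the median gene, -0.0958 with small RNAs left out of the sum and 0.65 on the common-sum scale. None differed by 2-fold as deposited, beside 6.12% of all genes at least 2-fold lower and 6.56% higher. On the common-sum scale 0 of the 9 were lower, beside 15.7% of all genes, and 1, *Sag* at 1.57, was at least 2-fold higher, beside 22.4%, so these counts are close to those of all genes. The rod ratios ran from -0.48 for *Gngt1*, at 12096 FPKM in CTRL and 8644 FPKM in IR12, to 0.92 for *Sag*. *Gnat1*, the alpha subunit of rod transducin, had 4027 and 4237. *Cnga1*, the pore subunit of the rod channel, had 675 and 677, and was the rod gene closest to no difference.

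In 7 of 9 pairs the log2 ratio of the cone gene was below that of the rod gene, with a median difference of -0.44. This difference is nearly free of scaling, so a change of scale could hardly move it. Its median stayed between -0.46 and -0.44 under the alternatives tried, which does not measure its precision. Among the pairs below 0 it was largest for *Arr3* against *Sag*, at -1.92, followed by *Pde6h* against *Pde6g* at -0.82. *Cngb3* against *Cngb1* gave -0.65, *Pde6c* against *Pde6a* -0.48 and *Gnat2* against *Gnat1* -0.44. *Gngt2* against *Gngt1* and *Cnga3* against *Cnga1* were nearest to 0, at -0.16 and -0.09. *Gnb3* against *Gnb1* was 1.45 and *Pde6c* against *Pde6b*, the other catalytic subunit of rods, was 0.17. *Pde6c* enters 2 pairs, *Gnb1* is expressed by most cells, and the difference between cone and rod genes was not tested.

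**Figure D3:**
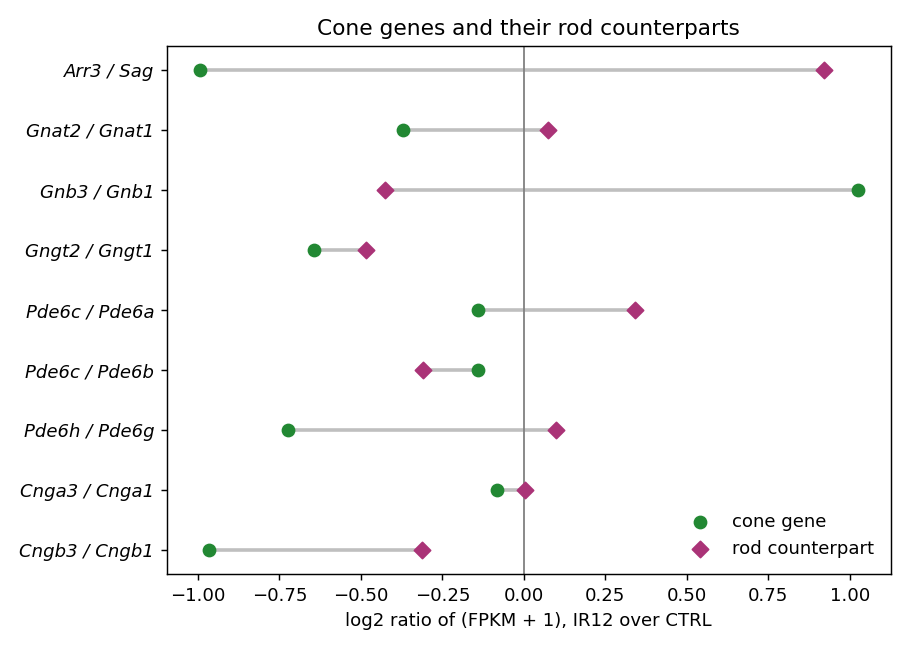
Log2 ratio of (FPKM + 1), IR12 over CTRL, for cone genes (circle) and their rod counterparts (diamond), joined by a line. The circle lies to the left of the diamond in 7 of 9 pairs, furthest for Arr3 and Sag (-0.99 and 0.92), and to the right for Gnb3 and Gnb1 and for Pde6c and Pde6b.

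Summed over the lists, the cone genes held 604 FPKM in CTRL and 499 in IR12, which is 2.32% and 2.05% of the rod sum in the same library. Without *Gnb3* and *Gnb1*, which other cells express as well, the cone share was 2.31% and 1.59%. Without *Gnat2* and *Gngt1*, the most abundant genes of the lists over both libraries together, it was 3.05% and 2.30%. The share was lower in IR12 in each of these 3 sums.

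**Figure D4:**
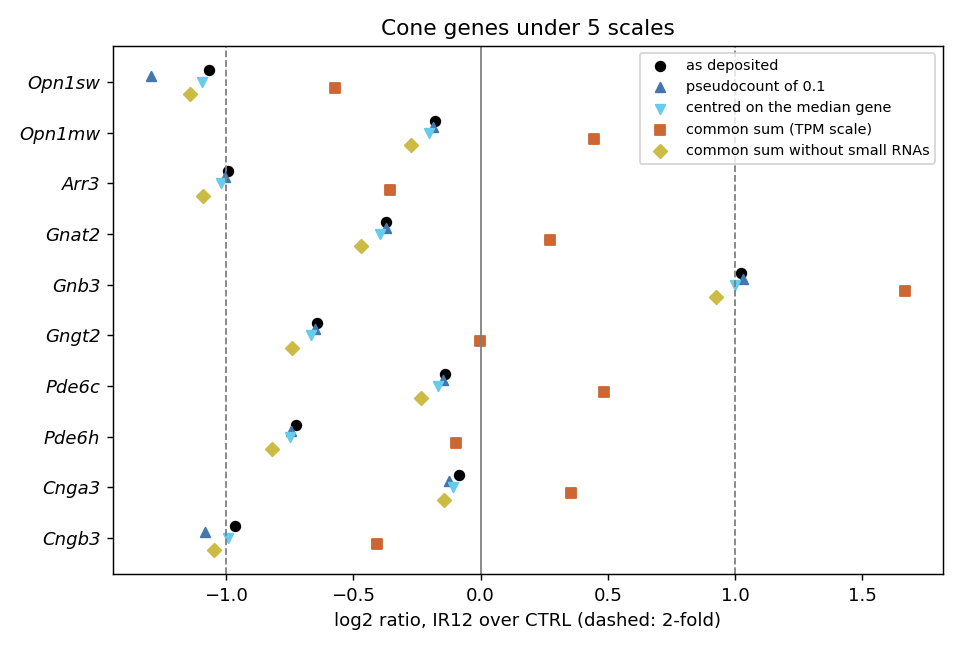
Log2 ratio, IR12 over CTRL, of the 10 cone genes under 5 scales, with dashed lines at 2-fold. The squares, where both libraries are set to the same FPKM sum, lie to the right of the values as deposited, which puts Opn1mw (0.45), Gnat2 (0.27), Pde6c (0.48) and Cnga3 (0.36) above 0, while Opn1sw, Arr3 and Cngb3 are below 0 and Gnb3 is above 0 on all 5 scales.

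Other genes of the cascade, most of them used by rods and cones alike, were read from a list of 12 that also holds the calcium exchanger of each cell type. Of these, 11 passed the filter, 9 were lower and 2 higher in IR12 as deposited, beside 48.2% of all genes lower, while 3 were lower on the common-sum scale, beside 15.7%. The median log2 ratio was -0.44, which became 0.20 on the common-sum scale. *Pdc*, phosducin, which binds the beta and gamma subunits of transducin, was the 1 gene at least 2-fold lower as deposited, beside 6.12% of all genes, at 4269 FPKM in CTRL and 1840.4 FPKM in IR12. On the common-sum scale none was at least 2-fold lower, beside 3.48%, and *Guca1b* was at least 2-fold higher at 1.36, beside 22.4%, while with small RNAs left out of the sum *Rcvrn* joined *Pdc*, beside 6.90%. *Rcvrn*, recoverin, a calcium sensor that restrains opsin kinase, had 1558 and 825. *Grk1*, the opsin kinase, had 227 and 208, a log2 ratio of -0.12.

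*Rgs9*, which speeds the shutoff of transducin and acts with *Gnb5*, had 245 in CTRL and 175 in IR12, and *Gnb5* had 169 and 162. *Rgs9bp*, their membrane anchor, had low values of 1.78 and 2.08. The calcium sensors of guanylate cyclase were on opposite sides as deposited, with 225 and 165 for *Guca1a* and 437 and 718 for *Guca1b*. The guanylate cyclase gene *Gucy2f* had 266 and 145. *Slc24a1*, the calcium exchanger of rods, had 264 and 185, and *Slc24a2*, that of cones, 12.2 and 10.7, a log2 ratio of -0.18. *Gucy2e* was listed at 0 in both libraries, and *Gucy2d*, which RefSeq gives as RETGC-1 and which was added after its value was seen, had 48.2 and 43.3. Neither is among the 11 genes of the counts and the median given for this list. With *Gucy2d* in place of *Gucy2e* the median log2 ratio of the list was -0.31 as deposited.

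Of 8 photoreceptor transcription factors, 6 passed the filter and all 6 were lower in IR12 in the deposited values, beside 48.2% of all genes, while 1 of the 6 was lower on the common-sum scale, beside 15.7%. Their median log2 ratio was -0.25 and became 0.30 on the common-sum scale. *Thrb*, the thyroid hormone receptor that directs middle-wavelength opsin expression in cones, had 20.1 in CTRL and 19.0 in IR12, or a log2 ratio of -0.08. *Rxrg*, a retinoid receptor of cones that acts on the choice of opsin, had low values of 1.99 and 1.45. *Crx*, the activator of rod and cone genes, had 96.8 and 95.5, and *Rorb*, which acts in photoreceptor development, had 142 and 80.2.

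*Nrl* and *Nr2e3*, which set the rod program, had 54.1 and 39.4 and 27.3 and 23.5. *Sall3*, a factor of cones and some bipolar cells, was under FPKM 1 in both libraries, with 0.706 and 0.373. *Otx2* was listed at 0 in both, and so were all 37 genes on the mitochondrial chromosome, so absence of a value in the table was not read as absence of expression. None of the 6 factors that passed differed by 2-fold on any of the 5 scales. Among all genes, 6.12% were at least 2-fold lower and 6.56% higher as deposited, and 3.48% and 22.4% on the common-sum scale. *Gapdh*, a metabolic gene often taken as a reference, had 716 and 690.1.

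**Figure D5:**
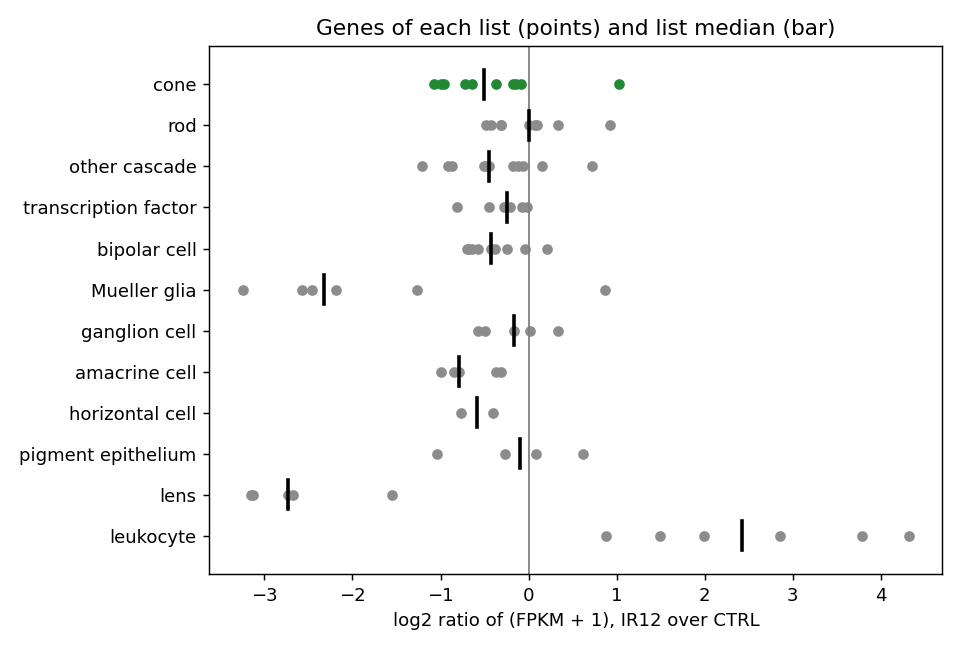
Log2 ratio of (FPKM + 1), IR12 over CTRL, of the genes that passed the filter (points, green for the cone list) in 12 gene lists, with a bar at each list's median. The cone median is -0.51 and the rod median 0.0027 as deposited, the Mueller glia and lens medians are -2.33 and -2.73, and the leukocyte median is 2.42; on the common-sum scale the cone median is 0.14 and the rod median 0.65.

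Markers of Müller glia, the glial cells that support photoreceptors, differed more than any photoreceptor list in this set. Of the 6, 5 were at least 2-fold lower in IR12 as deposited, beside 6.12% of all genes, and 4 on the common-sum scale, beside 3.48%. The remaining marker was higher, and at least 2-fold higher on the common-sum scale, at 1.51, beside 22.4%. The summed FPKM was 1164 in CTRL and 422 in IR12, and the median log2 ratio was -2.33. *Glul*, glutamine synthetase, was the most abundant in CTRL, with 754 and 126, and *Vim*, an intermediate filament, was the marker that was higher and the most abundant in IR12, with 121 and 221. None of the 6 was listed at 0 in either library, and the part of this difference in the values of the cone genes was not tested.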

How the data were processed

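The data are 2 RNA-seq libraries of rat retina, CTRL and IR12, prepared with rRNA removal from total RNA. The series description names a stranded mRNA kit and the sample labels a stranded total RNA kit. The authors deposited gene-level FPKM, 1 column per library, and their processing notes name STAR 2.5.2b, Cuffdiff 2.2.0 and rn6. Which library size scaling Cuffdiff applied is not given in the sources used here. The table gives 0-based starts, and 1 was added to each.

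FPKM was used as deposited, with a pseudocount of 1 and a minimum of 1 in at least 1 library, and no test was run. The settings tried besides were centring by the median gene, a pseudocount of 0.1, IR12 rescaled to the FPKM sum of CTRL (the common-sum or TPM scale), the same without 4460 small RNA genes recognised by symbol, and a minimum of 5 or none. The worth of 1 read came from the most frequent locus length of 500 to 1500 bases, which was decided with the values in view. Of the values there up to 20 times the lowest repeated FPKM, 5 of 6 in CTRL and 16 of 17 in IR12 are that FPKM itself, so 1 value per library was left to compare with it, and the worth of 1 read is an assumption.

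Named genes are those of the cone, rod, other cascade and transcription factor lists and *Gapdh*; marker lists are given by counts, sums, the most abundant gene and any listed at 0. *S100a8*, *Vim*, *Tfap2a*, *Tfap2b*, *Pcp2*, *Grm6*, *Trpm1*, *Gucy2d*, the choice of printed promoters and the motif TATAAA were added with the values in view. The members and lists were chosen with earlier results of these data known. 1 gene planned for the rod list, with its 2 pairs, is not reported here, and all rod values leave it out. The planned protein identity of cone and rod counterparts was not computed, for lack of protein sequences. The scripts ran under Python 3.11.15 with numpy 2.4.6, pandas 2.3.3 and matplotlib 3.10.9.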

Additional observations from a re-analysis of the deposited data

How the results depend on the processing

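Each condition has 1 library, so none could be left out and the precision of every value is unknown beyond its reads. Of 143 alternative values, 120 kept their direction and moved by less than 1.5 times, 14 moved further and 9 changed sign. Part of the 120 could not move. A change of the minimum FPKM leaves the log2 ratio of a single gene as it is, and scaling nearly cancels in the differences between cone and rod genes. The count of 120 is therefore no measure of precision. Most values that moved further or changed sign came with IR12 rescaled to the FPKM sum of CTRL, which raises every value of IR12. On that scale 5 cone genes were lower in IR12, beside 15.7% of all genes, and 0 at least 2-fold lower, beside 3.48%. The medians there were 0.14 for the cone, 0.65 for the rod, 0.20 for the other cascade and 0.30 for the transcription factor list. *Opn1mw* came to 0.45, *Gnat2* to 0.27, *Pde6c* to 0.48 and *Cnga3* to 0.36, and over all genes 473 were at least 2-fold lower and 3051 higher, in place of 832 and 892. The number of cone genes at least 2-fold lower was 3 with a pseudocount of 0.1, 2 after centring and 3 with small RNAs left out of the sum, beside 8.65%, 6.37% and 6.90% of all genes, and the number at least 2-fold higher was 0 in the last 2 settings, beside 6.33% and 5.80%. The rod median was -0.0958 with small RNAs left out and -0.0225 after centring. Without *Arr3* and *Cngb3*, whose listed loci hold other rows (chosen after seeing the data), 7 of 8 cone genes were lower, beside 48.2% of all genes. The median was then -0.27.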

Other observations

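Cones signal to horizontal and bipolar cells, and amacrine cells receive bipolar input. Of the 3 horizontal cell markers, 2 passed the filter. Both were lower in IR12 as deposited, beside 48.2% of all genes, and on the common-sum scale, beside 15.7%. All 3 together had a summed FPKM of 76.9 in CTRL and 45.0 in IR12. *Calb1*, a calcium-binding protein and the most abundant of them, had 74.2 and 43.2. All 5 amacrine cell markers were lower as deposited, beside 48.2% of all genes, and 3 on the common-sum scale, beside 15.7%. Their median log2 ratio was -0.79 as deposited and -0.16 on the common-sum scale. The summed FPKM was 213 and 141, led by *Gad1*, an enzyme of GABA synthesis, with 107 and 82.7. None of these genes was at least 2-fold lower by the ratio of FPKM + 1 as deposited, beside 6.12% of all genes. By FPKM alone *Tfap2a* and *Tfap2b*, transcription factors of amacrine cells, were at 3.46 and 2.06 times as much in CTRL as in IR12. The values of *Tfap2a* were low, 1.65 in CTRL and 0.478 in IR12, while *Tfap2b* had 34.4 and 16.7. With a pseudocount of 0.1 these 2 were at least 2-fold lower, beside 8.65% of all genes. *Tfap2b* was so too after centring on the median gene, beside 6.37%, and with small RNAs left out of the sum, beside 6.90%.

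The ganglion cell list, read from 6 markers of which 5 passed, had 3 lower and 2 higher as deposited, beside 48.2% of all genes lower. On the common-sum scale 0 were lower, beside 15.7% of all genes. Its median was -0.16 as deposited and 0.47 on the common-sum scale, with *Nefl*, a neurofilament, at 132 in CTRL and 88.8 in IR12. The pigment epithelium list had 2 lower and 2 higher among the 4 that passed as deposited and 1 lower on the common-sum scale, beside 48.2% and 15.7% of all genes lower, and its 5 genes together had a summed FPKM of 41.1 and 40.7. *Rgr*, a retinal G protein-coupled receptor and its most abundant gene, had 13.7 and 21.6. As deposited 1 of the 4 was at least 2-fold lower, beside 6.12% of all genes. On the common-sum scale none was, beside 3.48%, while *Rgr* was at least 2-fold higher at 1.25, beside 22.4%. Of the 3 blood markers 2 were found, led by *Hbb*, a beta globin, with 20.4 and 35.1.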
